A study of Mus musculus with 2 samples.

Results

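The expression of 10 genes that mark macrophages or serve their lysosomes was followed on the arrays: Ctss, Lyz2, Aif1, Mpeg1, Cd68, Csf1r, Adgre1, Cd14, Fcer1g and Tyrobp. They were chosen by name, and their probes were those non-control probes on both arrays whose accession maps to 1 of these symbols. Of the 10 genes, 9 had at least 1 probe, and together they had 14 of the 41174 different probes. Cd68, a lysosomal membrane glycoprotein of macrophages, had no probe whose accession matched it and is not analysed here. Accessions were matched to those of 1 RefSeq release, so a probe listed under an older accession would not have been found. A probe on the arrays has an older accession that may be that of Cd68. Nothing used here pairs them, so it was left out. All 9 measured genes were detected, meaning that 1 pool or both gave signals that Feature Extraction marked as well above background in each dye orientation. For these 9 this held for both pools, so no member entered through 1 pool alone.

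The tissue was the ventral prostate of FVB/N mice (also spelled FBV/N in the labels) at 6 months of age. The growth text of the labels names ventral or dorsolateral lobes, and the tissue label of both arrays is the ventral one. One RNA pool came from 6 wild type mice and the other from 6 ARR2PB-miR32 transgenic mice. ARR2PB, a promoter built from probasin sequences, drives a transgene in the androgen-responsive epithelium of the prostate, so the macrophages of the gland are not the cells the promoter is built for. Both pools were hybridised together to 2-colour Agilent arrays, with the transgenic pool in Cy3 on array 1 and in Cy5 on array 2. Both arrays carried the same 2 pools, so each genotype has 1 replicate, no test across mice is possible and no p-value is given. The SD beside a value is that of the 2 technical arrays and leaves out the spread between mice.

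Tissue macrophages are phagocytes that arise from embryonic precursors and blood monocytes and depend on signals through the CSF1 receptor. They take up debris and microbes into phagosomes, which fuse with lysosomes where proteases and lysozyme break the cargo down. Many of their activating receptors have no signalling tail of their own and work through small adaptor proteins that carry an ITAM, a tyrosine motif that recruits the kinase Syk. In the prostate, macrophages lie in the stroma and between epithelial cells, and they increase in inflammation.

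The microRNA made by the transgene is shown to identify what was expressed. The capitals in its mature 5p sequence (RefSeq, GRCm38.p6, chr4:56895272-56895293, minus strand) mark the seed, bases 2 to 8.
mmu-miR-32-5p: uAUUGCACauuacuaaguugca

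Upstream sequence of the members was searched for motifs of factors known from macrophages and lysosomes. GAGGAA is a sequence bound by PU.1, the ETS factor that defines the myeloid lineage. Its shorter part GGAA was not counted, so a window without GAGGAA may still hold GGAA. In the 250 bases before the start site, 3 of 6 members with a promoter in the table held GAGGAA on either strand, namely Ctss, Aif1 and Cd68, against 23.3% of all 32851 promoters of that length. Cd68 has no ratio here, and among measured members the count was 2 of 5. The longer form GAGGAAGT, which contains GAGGAA, was in 0 of the 6 and in 2.44% of all promoters. The E-box CACGTG was also in 0 of the 6, against 6.02% of all, and TCACGTGA, the form that holds it and is read by the lysosomal regulator TFEB, in 0 of 6 against 0.785%. The other members with a promoter were Lyz2, Mpeg1 and Fcer1g. Such a match only says that these letters occur in the window. Shown are the upstream windows (RefSeq, GRCm38.p6) of the measured members with a match, and that of Lyz2 for a member without one. Capitals mark GAGGAA or its reverse complement TTCCTC. The Ctss window is chr3:95526536-95526785 on the plus strand with the match at position -164 from the start site. The Aif1 window is chr17:35176053-35176302 on the minus strand with the match at position -7. The Lyz2 window is chr10:117282273-117282522 on the minus strand.
Ctss: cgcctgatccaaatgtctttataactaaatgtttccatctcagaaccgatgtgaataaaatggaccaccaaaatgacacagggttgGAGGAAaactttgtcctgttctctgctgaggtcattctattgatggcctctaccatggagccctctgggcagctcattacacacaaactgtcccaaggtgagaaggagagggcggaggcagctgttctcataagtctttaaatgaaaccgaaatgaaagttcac
Aif1: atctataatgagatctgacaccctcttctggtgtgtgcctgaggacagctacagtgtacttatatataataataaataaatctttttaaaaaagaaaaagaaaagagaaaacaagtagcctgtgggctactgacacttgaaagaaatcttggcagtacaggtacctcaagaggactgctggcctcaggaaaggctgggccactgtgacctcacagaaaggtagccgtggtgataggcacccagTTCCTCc
Lyz2: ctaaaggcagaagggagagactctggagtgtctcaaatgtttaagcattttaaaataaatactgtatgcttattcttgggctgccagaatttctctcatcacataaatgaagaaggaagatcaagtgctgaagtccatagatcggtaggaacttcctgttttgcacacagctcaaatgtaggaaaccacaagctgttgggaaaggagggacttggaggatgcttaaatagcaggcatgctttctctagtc

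Macrophage genes were lower in the transgenic pool. By a rule of a mean log2 ratio of -1 or less with at least 1.5-fold lower on each array, 8 of the 9 measured genes were lower and 0 were higher. Over all 13899 detected genes, 3.53% were lower and 1.09% higher by this rule, and among those measured above background in all 4 readings 2.22% were lower. The median log2 ratio of the 9 genes was -1.51, a 2.86-fold lower level, while the median of all detected genes was 0.01. That median was -1.55 on array 1 and -1.54 on array 2 after loess normalization within each array. Without loess the arrays lay farther apart, as given below under median centring. All 9 genes were below 0 on both arrays, as were 27.3% of all detected genes. Each of the 9 lay at or below -0.80, the 5th percentile of all detected genes, and Ctss alone lay below the 1st percentile of -2.19. In whole-tissue RNA, fewer macrophages and less of these transcripts per macrophage cannot be told apart.

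**Figure D1:**
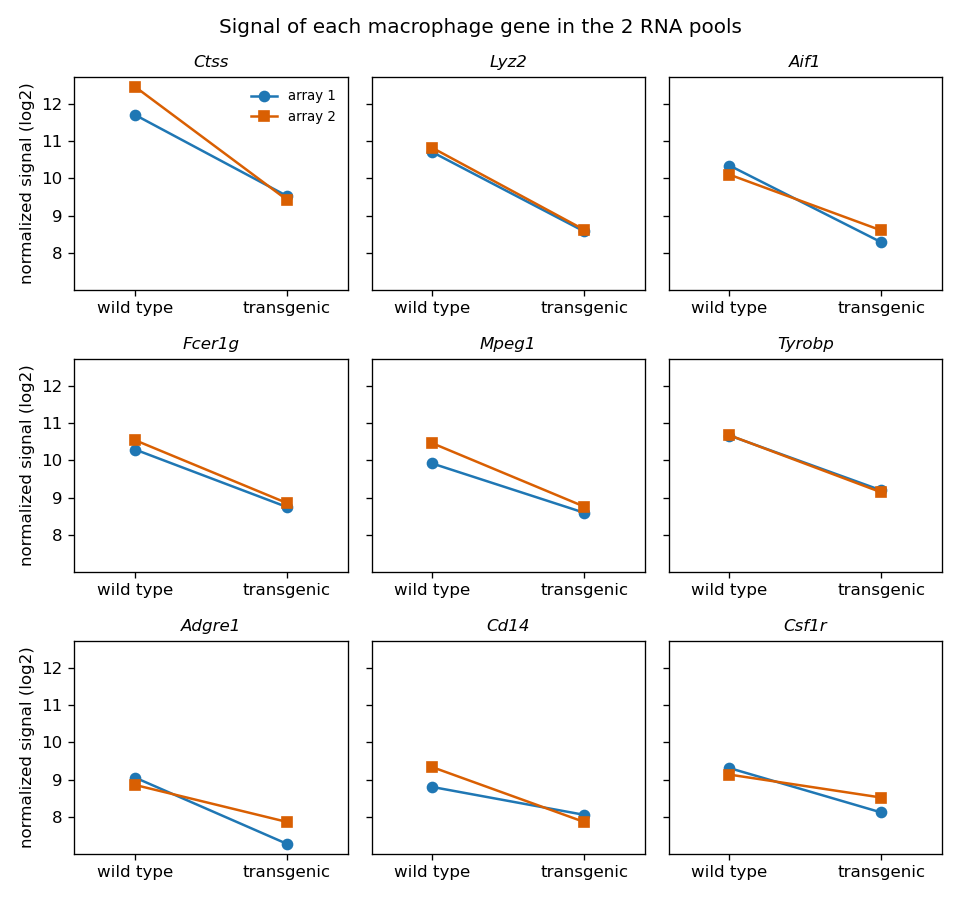
Normalized signal on a log2 axis in the wild-type and transgenic pools for the brightest probe of each of the 9 measured genes, with 1 line per array. Every line runs downward from wild type to transgenic, steepest for Ctss on array 2 at a log2 ratio of -3.05. Levels of different genes come from different probes and are not comparable with each other.

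Ctss and Lyz2 had the lowest ratios of the 9 genes. Ctss encodes cathepsin S, a cysteine protease that trims the invariant chain during antigen presentation. Its normalized signal, a linear intensity, was 3356 and 5673 in the wild-type pool on arrays 1 and 2, and 738 and 687 in the transgenic pool. Both transgenic values lay far under both wild-type values. The mean log2 ratio was -2.62 ± 0.61 (SD of 2 arrays), or 6.13-fold lower, and its rank from the lowest among all detected genes was 98. The arrays gave 4.55-fold and 8.26-fold, with wild-type readings farther apart than those of the transgenic pool.

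Lyz2 encodes the lysozyme of macrophages and neutrophils, which cleaves bacterial cell walls. Its signal was 1676 and 1816 in the wild-type pool and 381 and 393 in the transgenic pool. The pools did not overlap, and the arrays gave nearly the same ratio of -2.14 and -2.21, with a mean of -2.17 ± 0.05, or 4.51-fold lower. Lyz1, the closely related lysozyme best known from Paneth cells, was lower as well at -2.76 ± 0.57, with signals of 8476 and 6193 against 946 and 1207. The paralogs are similar in sequence, and how much signal their probes share is uncertain.

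Mpeg1 encodes perforin-2, a pore-forming protein of the phagosome membrane. By its brighter probe the signal was 968 and 1414 in the wild-type pool and 386 and 433 in the transgenic pool, a mean log2 ratio of -1.51 ± 0.27. The dimmer probe read 304 and 158 in the wild-type pool and 272 and 229 in the transgenic pool. There the pools overlapped, and the log2 ratio was -0.16 on array 1 and 0.54 on array 2. The 2 probes carry the same accession and disagree, and the mean of both, -0.66, does not pass the rule.

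The ITAM adaptors of activating receptors were lower by nearly the same amount on both arrays. Fcer1g encodes the gamma chain that Fc receptors use for signalling and surface expression. Its signal was 1256 and 1495 in the wild-type pool and 429 and 462 in the transgenic pool, with log2 ratios of -1.55 and -1.69. The mean was -1.62 ± 0.10, or 3.08-fold lower. Tyrobp encodes DAP12, the adaptor of TREM2 and other receptors of myeloid and NK cells. It read 1633 and 1641 in the wild-type pool and 586 and 565 in the transgenic pool, so that readings within a pool were close and the pools lay well apart. The mean log2 ratio of Tyrobp was -1.51 ± 0.04, or 2.85-fold lower.

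Surface receptors and the cytoplasmic marker Aif1 varied more between arrays. Aif1 encodes IBA1, an actin-bundling protein used as a stain for macrophages and microglia. Its brighter probe read 1305 and 1101 in the wild-type pool and 311 and 388 in the transgenic pool, a mean log2 ratio of -1.79 ± 0.40. The dimmer probe was also lower, at -1.02 ± 0.44, with 204 and 396 against 125 and 157. So both Aif1 probes passed the rule, though with means that differ by more than the SD of either.

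Adgre1 encodes the adhesion receptor F4/80, the classic antigen of mouse macrophages. Its detected probe read 531 and 463 in the wild-type pool and 154 and 232 in the transgenic pool. The pools did not overlap, and the mean was -1.39 ± 0.56, with 3.45-fold on array 1 and 2.0-fold on array 2. The other Adgre1 probe was well above background in neither pool on any array.

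Cd14 encodes the coreceptor that passes lipopolysaccharide to TLR4. Its signal was 446 and 646 in the wild-type pool and 265 and 232 in the transgenic pool. The mean log2 ratio was -1.11 ± 0.51, or 2.17-fold lower, and on array 1 alone it was -0.75, which would not reach 2-fold. Among the 8 genes that passed the rule, Cd14 was the nearest to its edge.

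Csf1r, the receptor for CSF1 and IL-34 that macrophages need to survive, did not pass the rule. Its brightest probe read 635 and 562 in the wild-type pool and 277 and 366 in the transgenic pool. The log2 ratios were -1.20 and -0.62, with a mean of -0.91 ± 0.41. Its second detected probe gave -0.72 ± 0.40. The dimmest Csf1r probe, well above background on 1 array only in each pool, gave -0.40 ± 0.42. All 3 Csf1r probes were below 0 on both arrays, and the pools of the brightest probe did not overlap.

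**Figure D2:**
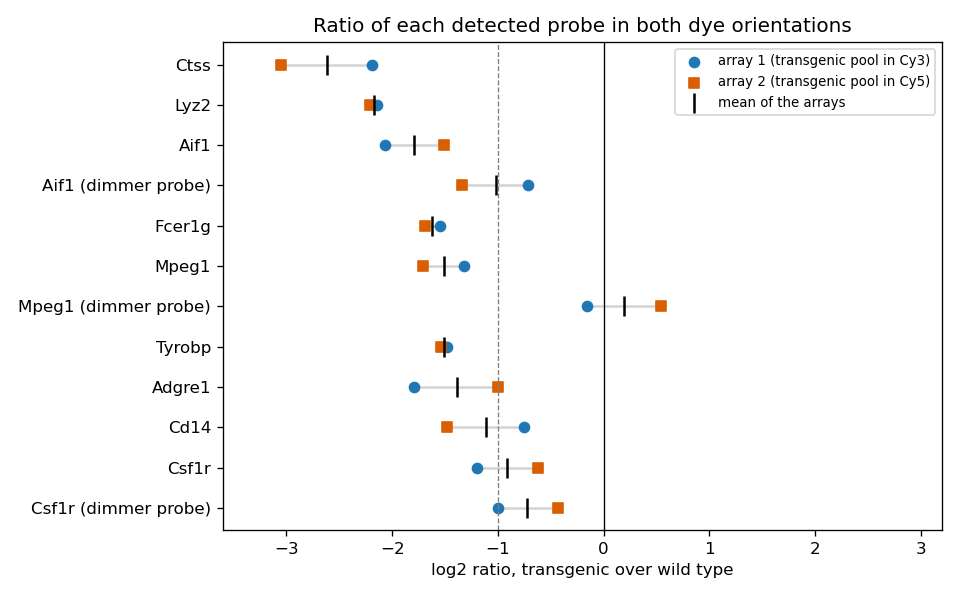
Log2 ratio of transgenic over wild type for each of the 12 detected probes of the macrophage genes, with 1 point per array and a bar at the mean; the dashed line marks -1. In 11 of 12 probes both arrays lie below 0, and the exception is the dimmer Mpeg1 probe, whose arrays gave -0.16 and 0.54.

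Across all 12 detected probes of the 9 genes, 9 passed the rule and 11 were below 0 on both arrays. Array 1 gave the lower ratio for 3 of the 9 genes by their brightest probe, and array 2 for the others. For 4 of the 9 the arrays lay within 0.5 of each other on the log2 scale: Lyz2, Mpeg1, Fcer1g and Tyrobp. For the typical detected gene (the median over all of them) the distance of an array from the mean of both was 0.17. That measure is smaller than the gap between the arrays used for the 9 genes. Over all detected genes the ratios of the arrays correlated at r = 0.513. For all 9 genes the lowest raw reading was that of the transgenic pool in Cy5 on array 2. There the background-subtracted median pixel intensity was 357 for Ctss, 166 for Csf1r, 84.0 for Adgre1 and 81.5 for Cd14, on an array whose mean local background in Cy5 was 117. In Cy3 on array 1 the same pool read 1033, 322.5, 146 and 297.5 for these genes, over a mean local background of 26.3. For Adgre1 and Cd14 the Cy5 reading was thus below the mean local background of that array in Cy5.

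Of 29 detected genes in a list of 42 other macrophage and monocyte genes, 10 were lower, 0 were higher and 19 did not pass the rule, with a median of -0.84, and 26 were below 0 on both arrays. Ly86, which encodes the partner of the TLR-like receptor CD180, stood at -2.08 ± 0.06, with 734 and 960 in the wild-type pool against 169 and 233. Gpnmb, a glycoprotein of phagocytes loaded with debris, was at -1.75 ± 0.58. Ms4a7, a membrane protein of tissue macrophages, was at -1.73 ± 0.12, and the galactose lectin Clec10a at -1.54 ± 0.05. In which leukocytes the genes of this list were lower was not tested. Markers of resident macrophages that did not pass were the mannose receptor Mrc1 (-0.58 ± 0.39), the scavenger receptor Cd163 (-0.39 ± 0.11), the folate receptor Folr2 (-0.60 ± 0.54) and the efferocytosis receptor Mertk (-0.01 ± 0.49). Cd163 was dim, at 141 and 147 in the wild-type pool, with transgenic signal above background on 1 array. Sirpa, the receptor for CD47, had the highest ratio of the list at 0.58 ± 1.19, and its other probe gave -0.82. In 4 of those 10 the transgenic signal cleared background on just 1 array. The count was 6 with detection required in both pools, where 2.22% of all genes were lower. With Feature Extraction's ratios it was 20, where 6.75% of all genes were lower.

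The signalling partners of the members showed the following. Of 6 detected genes around the CSF1 receptor, 2 were lower: Inpp5d, the lipid phosphatase SHIP1, at -1.80 ± 0.29, and Csf2rb, the shared beta chain of GM-CSF, IL-3 and IL-5 receptors, at -1.21 ± 0.42. A second Csf2rb probe gave 0.08, and with detection in both pools Inpp5d alone passed. The ligand Csf1 was at -0.55 ± 0.12, with 234 and 284 in the wild-type pool against 169 and 183, and the other ligand Il34 at -0.03 ± 0.41. Neither ligand passed the rule. Il34 was dim at 156 and 134 in the wild-type pool, where a difference appears smaller than it is.

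Among 14 detected genes of ITAM receptors and their kinases, 4 were lower and 0 higher, with a median of -0.82. They were the tyrosine kinase Syk (-1.60 ± 0.20), the exchange factor Vav1 (-1.07 ± 0.19), the kinase Btk (-1.06 ± 0.04) and the adaptor Lat2 (-1.04 ± 0.20). All 4 were well above background on 1 array only in the transgenic pool, and with detection in both pools 0 of the list passed. The count was 10 with Feature Extraction's ratios, where 6.75% of all genes were lower, and 1 without background subtraction, where 3.08% were. Syk, Vav1 and Btk also serve lymphocytes. In which cells the lower genes of this list and of the CSF1 receptor list were lower was not tested. Trem2, a lipid-sensing receptor that pairs with DAP12, was at -0.94 ± 0.28 and did not pass.

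Of 11 detected genes of lipopolysaccharide sensing, 0 were lower and 0 higher, with a median of -0.06. With 3.53% of all genes lower, a list of this length says little by its count. Tlr4, the receptor that Cd14 serves, was at 0.09 ± 0.22, with 145 and 164 in the wild-type pool against 172 and 157. These signals are dim, as the dimmest Csf1r probe, which was not detected, read 103 and 115 in the wild-type pool. A lower Tlr4 level could hardly show, so its ratio says little. Its cofactor Ly96 was at 0.03 ± 1.39, so its arrays disagreed. With Feature Extraction's ratios 2 genes of this list were lower (6.75% of all genes), and on array 1 alone 1 was (4.31% of all genes).

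Lysosomal genes outside the members mostly did not pass. Of 16 detected cathepsins, related proteases and cystatins, 1 was lower: Ctsz, the carboxypeptidase cathepsin Z, at -1.26 ± 0.20, with 2650 and 2180 in the wild-type pool against 1010 and 1000. The list median was -0.41, and 1 of 16 is 6.25%, near the 3.53% of all genes. The general proteases Ctsb (-0.71 ± 0.51), Ctsd (-0.21 ± 1.04) and Ctsl (0.10 ± 1.06) did not pass. That count was 4 with Feature Extraction's ratios, where 6.75% of all genes were lower. It was 3 on array 2 alone (4.24% of all), 2 in the series table (3.45%) and 0 under median centring (2.91%).

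Of 36 detected general lysosomal genes, 1 was lower and 0 higher, or 2.78% against 3.53% of all genes, and the median was 0.01. The 1 lower gene was Laptm5 at -1.28 ± 0.01, a lysosomal membrane protein of leukocytes that is also in the pan-leukocyte list. Membrane proteins found in the lysosomes of nearly all cells gave -0.01 ± 0.83 for Lamp1 and -0.69 ± 0.09 for Lamp2. The acid ceramidase Asah1 (-0.81 ± 0.10) had the lowest ratio among the rest, and the glucuronidase Gusb was at 0.00 ± 0.04. This count was 0 when detection in both pools was required, and likewise in the series table, which held the same number of genes (12011). By a 1.5-fold rule it was 5, where 5.49% of all genes were lower.

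**Figure D3:**
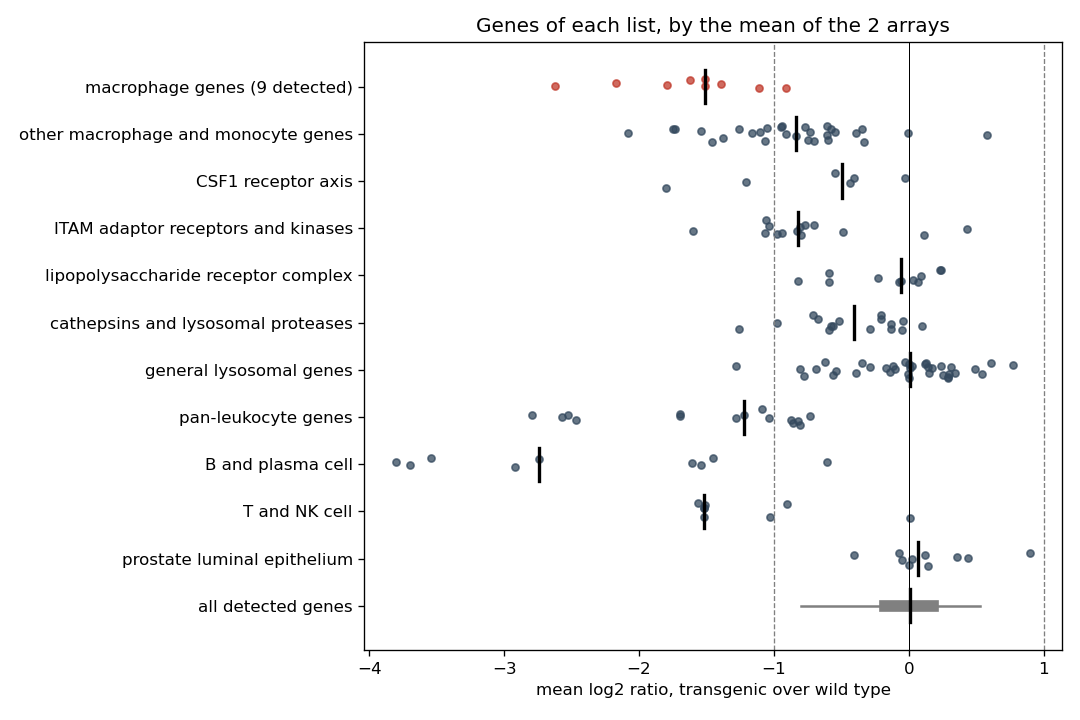
Mean log2 ratio of transgenic over wild type for each detected gene of 11 lists (points) with the list median (black bar); for all 13899 detected genes the thick bar spans the middle 50% and the thin line the 5th to 95th percentile. The median of the 9 macrophage genes is -1.51, of the general lysosomal genes 0.01 and of B and plasma cell genes -2.74.

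Markers of other leukocytes were lower in the same pool. Of 15 pan-leukocyte genes 10 were lower, with a median of -1.22 and all 15 below 0 on both arrays, among them the surface peptide Cd52 at -2.79 ± 0.18 and the CD45 phosphatase Ptprc at -2.57 ± 0.03. That Ptprc probe cleared background in the transgenic pool on 1 array, and 2 other detected probes of the gene gave about 2-fold lower levels, 1 of them at -1.12. With detection in both pools that count was 5, where 2.22% of all genes were lower, and the list median was -2.08. With Feature Extraction's ratios the count was 14, where 6.75% of all genes were lower, and the list median was -2.82. The median of the 9 macrophage genes was -1.51 and -1.87 in these settings, so which list had the lower median depended on the processing. Of 9 detected B and plasma cell markers 8 were lower, with a median of -2.74. Of these 8, the transgenic signal cleared background on just 1 array for 4 and on no array for 1, Fcrla, so these were detected through the wild-type pool where they are high. The summed signal of the 9 detected B and plasma cell markers was 22391 and 25547 in the wild-type pool and 2249 and 2563 in the transgenic pool. Jchain alone made up 16100 and 18100 of the wild-type sums and 1490 and 1440 of the transgenic ones. Of 8 detected T and NK cell markers 6 were lower, with a median of -1.51 and sums of 2123 and 2406 against 798 and 1125, while Cd4, Cd8a, Cd28, Klrb1c and Ncr1 were not detected. Of those 6, Nkg7 alone was measured above background in all 4 readings, and its other probe gave -0.31; the transgenic signal cleared it on 1 array for 4 genes and on no array for 1, Icos. The summed signal of the 9 macrophage genes was 11807 and 14811 against 3526 and 3758.

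Of 4 detected neutrophil markers, Ltf (-3.90 ± 0.56) and S100a9 (-2.40 ± 0.14) were lower, the latter with transgenic signal above background on 1 array. S100a8 (-1.05 ± 0.73) and Mmp9 (-0.46 ± 0.17) did not pass. The list sums were 8692 and 15576 against 948 and 1061, and Ltf alone made up 8000 and 14500 of the wild-type ones. The granule genes Camp, Ngp, Mmp8, Elane and Mpo were not detected, and whether the Ltf signal came from neutrophils was not tested. Lyz2, Fcer1g and Tyrobp are shared with neutrophils, Fcer1g also with mast cells, and Ctss with B cells and dendritic cells, and the part of those cells in the differences was not tested. Of 7 mast cell and basophil markers on the array 0 were detected. Of 3 detected dendritic cell markers none passed the rule (0 lower, 0 higher), with sums of 451 and 457 against 322 and 362.

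Markers of the labelled tissue were present, with all 10 luminal genes, Pbsn and Krt8 among them, detected. Of these 0 were lower and 0 higher, with a median of 0.07 and sums of 152238 and 128689 in the wild-type pool against 132768 and 162377. Basal genes had a median of -0.45 with 0 of 4 past the rule. Of 9 fibroblast and smooth muscle genes, Col3a1 and Lum were lower, each at -1.11. The list median there was -0.28 on array 1 and -1.04 on array 2, and its sums of 30274 and 64983 against 35568 and 23610 had no common direction. Of 6 ventral prostate secretion genes 3 were lower, with Spink1 at -5.88 ± 0.21. Of 5 endothelial markers 1 was detected, Emcn at -0.27, and Pecam1, Cdh5, Kdr and Tek were not. The 4 detected adipocyte genes had a median of 0.09.

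The size of the differences varied with the processing. With a normexp offset of 16 in place of 50 the median of the 9 genes was -1.62, with Feature Extraction's own ratios -1.87, and in the deposited series table -1.93. In these 3 settings Csf1r passed as well, so that 9 of 9 were lower, with Csf1r at -1.17 by Feature Extraction's ratios and at -1.24 in the series table. The series table follows Feature Extraction's ratios up to a constant on each array, so these are not separate checks. Over all genes 4.68%, 6.75% and 3.45% were lower in those 3 settings, in that order. Under median centring in place of loess 4 of 9 passed, with a median of -1.48, while 2.91% of all genes were lower. The calls of Mpeg1, Cd14, Fcer1g and Tyrobp ended there because array 1 alone then gave -0.35, 0.07, -0.54 and -0.42. Array 2 gave -2.62, -2.29, -2.61 and -2.46 for these genes, and the means of the arrays were -1.48, -1.11, -1.57 and -1.44. On single arrays at 2-fold, Cd14 did not pass on array 1, and Adgre1 and Csf1r did not pass on array 2.

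**Figure D4:**
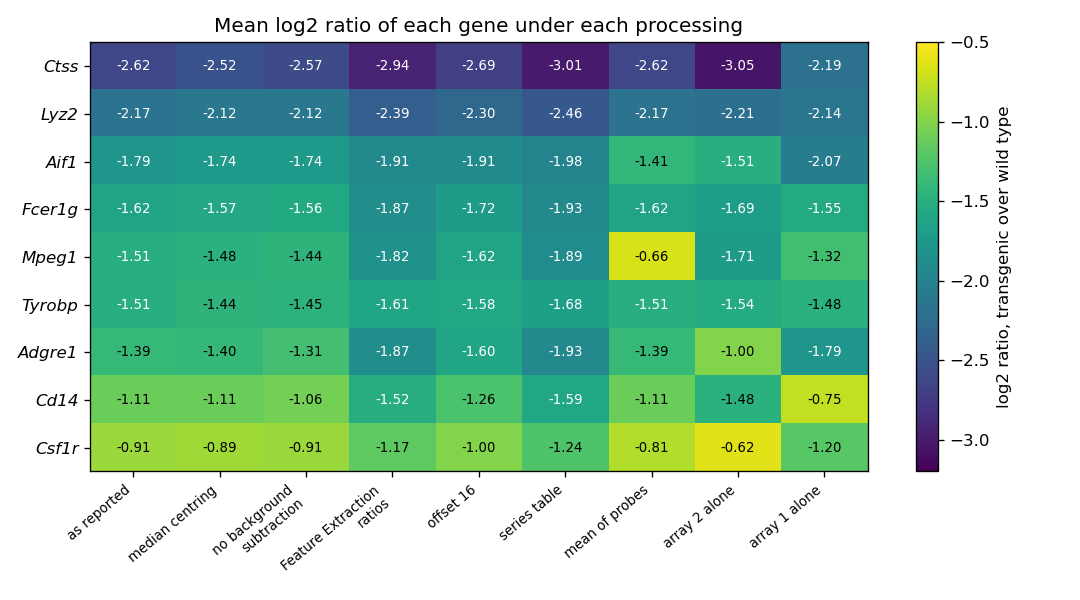
Log2 ratio of transgenic over wild type for each of the 9 genes (rows) as reported and under 8 other ways of processing (columns), as the mean of the arrays except in the last 2 columns; darker is lower. Every value is below 0, from -3.05 for Ctss on array 2 alone to -0.62 for Csf1r on array 2 alone.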

How the data were processed

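The deposited scanner files give median pixel intensity of each spot and its local background in both dyes, read with Agilent Feature Extraction 11.0.1.1 per the file headers. They also hold processed intensities, background-subtracted and dye-normalized per the file headers, and a log10 ratio of red over green made from them. The deposited series table holds log2 values. Across 15474 probes its columns correlated at r = 0.9999 or above with the processed-signal log2 ratio in the direction transgenic over wild type, after constants of -0.08 and -0.05, and each column's median was 0. How its 15511 rows were selected is not stated in the labels or headers used. The number of probes detected in both pools was also 15474, and both settings held 12011 genes. The series table and the filter on both pools are therefore not counted as separate checks of detection.

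Here intensities were corrected with normexp (offset 50) and loess within each array in limma 3.58.1 (R 4.3.3), with control and outlier spots at weight 0. Ratios were turned to transgenic over wild type and averaged over the 2 arrays. Signals per pool are linear intensities after loess and Aquantile, and include the offset. The offset makes differences of dim probes smaller and so shrinks their log2 ratios. Names came from RefSeq (GRCm38.p6) by accession without version, matching 27816 probes and leaving 13358 unmatched. Coordinates are those of the RefSeq sequences and not of the array, whose annotation build is mm9. Each gene's values are those of its brightest detected probe. The genes named are all members with every probe, up to the 4 largest passing genes of each list, and genes needed to describe what moved beside them; Mrc1, Cd163, Folr2, Mertk, Sirpa, Csf1, Il34, Trem2, Tlr4, Ly96, Ctsb, Ctsd, Ctsl, Lamp1, Lamp2, Asah1 and Gusb were chosen after their values were seen. Members and lists were chosen with earlier results of these data known. The calculation was tested on simulated data. On both arrays green signals were well above background for 29736 and 30718 non-control spots and red signals for 18606 and 17185. The number of arrays and of pools limits the precision. Alternatives were median centring, other background corrections, the series table, other detection and fold rules, the mean of a gene's probes and single arrays. Protein sequences were not used here.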

Additional observations from a re-analysis of the deposited data

How the results depend on the processing

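The macrophage genes kept a median below 0 in each alternative run. Of the 9 genes, 8 were lower as reported (3.53% of all genes), 4 under median centring (2.91%) and 4 by a 3-fold rule (1.7%). The count in the other settings lay between 7 and 9, and it was 7 and 8 on single arrays. The median of -1.51 was -1.48 under median centring, -1.45 without background subtraction, -1.87 with Feature Extraction's ratios, -1.62 with offset 16, -1.93 in the series table, -1.41 with the mean of probes, and -1.55 to -1.54 on single arrays. Both other detection filters left the median at -1.51 and the count at 8, but neither filter could have changed them. The probe used for each of the 9 genes already met the stricter filter. The undetected probes of Csf1r and Adgre1 were dimmer than the probes used, so dropping the filter kept the same ratios.

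Over all detected genes the reported counts were 491 lower and 151 higher. They were 938 and 309 with Feature Extraction's ratios, 763 and 250 by a 1.5-fold rule, and 236 and 47 by a 3-fold rule. Under median centring 99 genes were higher, and with detection in both pools 267 were lower. Higher genes numbered 271 to 450 on single arrays. Of the different genes in the pathway lists other than the members, 28 were lower and 0 higher. The lower count was 50 with Feature Extraction's ratios, 14 with detection in both pools, 44 by a 1.5-fold rule and 12 by a 3-fold rule, and 1 to 3 were higher on single arrays. For values that moved, the cause was not tested, apart from the fold rules, which change the threshold, and the detection filter, which tests fewer genes (12011). The series table also held 12011 genes.

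No paired analysis was possible because both arrays carry the same pair of pools. Signal over background limits the dimmer genes, since red local background averaged 114 and 117 against 26.3 and 26.6 in green.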
